A study of Mus musculus with 9 samples.

Results

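The striatum of *Shank3* KO mice was compared with that of WT littermates, using 6 of the 9 libraries of the series, 3 KO and 3 WT, taken by their genotype labels. The other 3 libraries come from HET littermates and are given beside the KO values. All mice were untreated males of 10 to 12 weeks on a C57BL/6J background, with the striatum of 1 mouse in 1 library. KO mice carry the *Shank3B* mutation, a germline deletion of exons 13 to 16 of *Shank3*, on both alleles, HET mice carry it on one allele, and WT mice carry none. Transcripts of *Shank3* without these exons can still be made in the mutant, so that it is a model for the loss of some *Shank3* isoforms and not of the whole gene.

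Shank3 is a scaffold of the excitatory postsynapse. It binds the SAPAP proteins (Dlgap genes) and the Homer proteins and so joins ionotropic and metabotropic glutamate receptors to the actin cytoskeleton. The striatum is the input station of the basal ganglia, and most of its neurons are GABAergic medium spiny neurons, which receive glutamatergic fibres from the cortex and thalamus. Those of the direct pathway carry the dopamine receptor *Drd1* and the peptide precursor *Tac1*, and those of the indirect pathway carry *Drd2*, the adenosine receptor *Adora2a* and the peptide precursor *Penk*.

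The values are normalized counts per gene, and 14239 of the 15464 listed genes reached 10 or more in 3 or more libraries and were tested. Differences are given as log2 of (normalized count + 1), KO minus WT, from a limma fit over all 9 libraries, with the standard error (SE). The sums of normalized counts lay between 30830020 and 33790296, no pair of libraries shared a nonzero value at any gene, and the number of reads is not known. KO replicate 3 and HET replicate 3 stood apart from the other 7 libraries on the first principal component (33.6% of the variance). Their scores were 0.60 and 0.59, and those of the other 7 ran from −0.30 (HET replicate 1) to 0.024 (WT replicate 2). In the KO and WT libraries alone, KO replicate 3 scored 0.85 on the first component, which held 38.5% of the variance. Markers of medium spiny neurons were high in every library, with *Ppp1r1b* (DARPP-32) between 12449 and 31982. The cortical marker *Slc17a7*, a vesicular glutamate transporter, was also present, between 26609 and 43336.

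*Shank3* itself had normalized counts of 7209, 8812 and 6043 in WT, 10237, 10798 and 10578 in KO, and 7575, 7098 and 8050 in HET. All KO libraries lay above all WT and HET libraries, with a log2 difference of 0.54 from WT (SE 0.13, unadjusted limma p = 0.0019, exact permutation p = 0.1). The gene-level value sums all exons and does not show the deletion of exons 13 to 16, so it does not check the genotype labels.

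No gene passed the test across the transcriptome in the main limma fit. An adjusted p under 0.05 (limma, Benjamini-Hochberg) was reached by 0 of 14239 genes (0%), and the smallest adjusted p was 0.912. At an unadjusted p under 0.05 there were 117 genes (0.822%), of which 55 were higher (0.386%) and 62 lower (0.435%) in KO. If no gene differed and the p values were calibrated, this share would be near the threshold of 0.05 itself. It lay far below. Genes that vary together across libraries can also move this share, and whether the limma p values were conservative here was not tested. The lack of adjusted calls is not evidence of no difference. With an empirical null, scaled to the observed spread of the test statistics, 644 of 14239 genes passed the unadjusted threshold and 2 the adjusted one. That scaling sets the middle of the statistics to the spread they would have if no gene differed. A share near the threshold of 0.05 largely follows from it, so the 644 genes do not count as differences found. Every KO library lay above every WT library for 288 genes (2.02%) and below for 358 genes (2.51%), and the fitted difference exceeded 1.5-fold for 254 genes (1.78%), 137 of them higher. Of all genes, 51.6% had a difference above 0, and the median absolute difference, 0.079 on the log2 scale, was smaller than the median SE of 0.15. KO against HET also gave 0 genes at the adjusted threshold (0%) and 186 genes at the unadjusted one (1.31%). All single genes below are therefore described by their values, and no KO difference named here passed the adjusted threshold in the main fit. The adjusted p (limma) of each single gene given with a p here was 0.999, and 3 mice against 3 allow no exact permutation p below 0.1. Every gene whose KO and WT libraries do not overlap has that exact permutation p of 0.1.

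How large a difference could have been missed depended on the level of the gene. The 95% interval of the KO difference lay within 1.5-fold of no difference for 10045 genes (70.5%) and within 2-fold for 12885 genes (90.5%). For the 6135 genes with a mean above 1000, these shares were 90% and 99.3%, and for the 2334 genes with a mean under 100 they were 8.23% and 52.7%. In simulated data, the same fit called 38 of 200 genes given a log2 change of 0.5, 148 of 200 given a change of 1 and 198 of 200 given a change of 2. The simulated noise was independent between genes and libraries, and only genes with a mean log2 level above that of 50 normalized counts were changed. The real libraries share structure that the simulation lacks, so these shares do not give the power in these data.

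**Figure D1:**
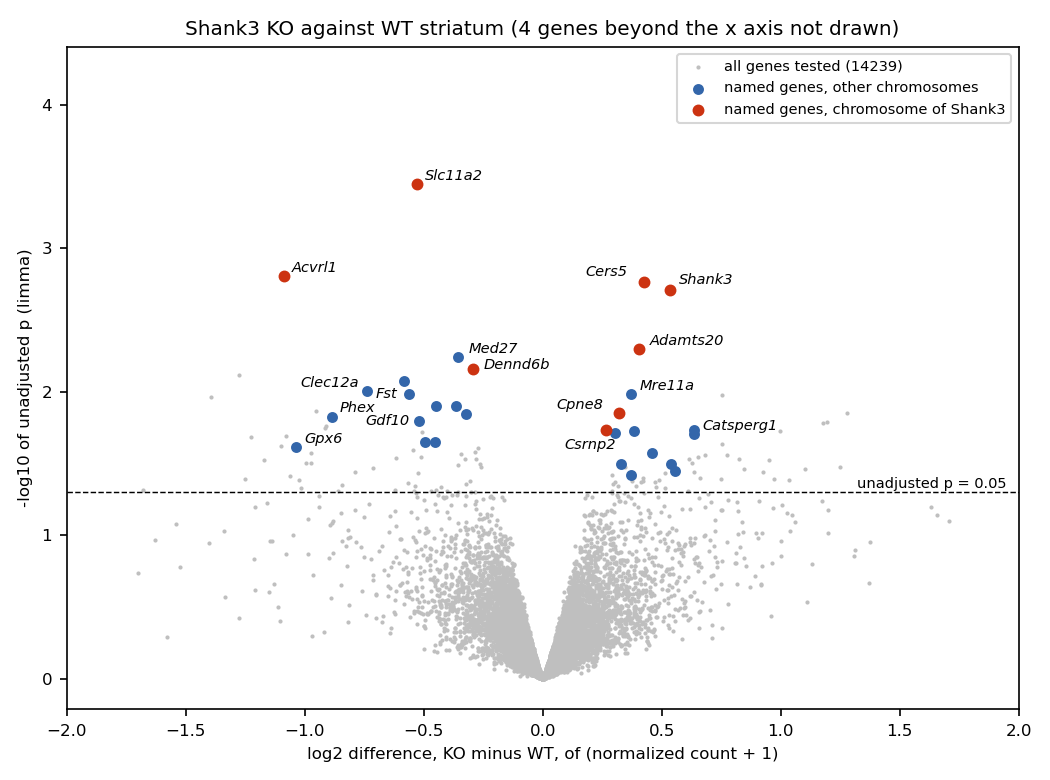
Log2 difference between KO and WT (x axis) against −log10 of the unadjusted limma p (y axis) for the genes tested, 1 dot per gene. The 4 genes beyond the x axis are not drawn, *Cd300ld3* (log2 −3.68) among them. The named genes are coloured, in red where they lie on chromosome 15 with *Shank3*, and 6 of the 10 genes with the smallest p do so.

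Genes with the smallest p that were higher in KO (15 were taken in each direction, with a mean of at least 50 and no overlap of KO and WT libraries) had modest differences, between 0.26 and 0.64 on the log2 scale. *Cers5*, a ceramide synthase of the sphingolipid pathway, had 1131, 1026 and 1137 normalized counts in WT and 1544, 1382 and 1496 in KO (log2 0.42, SE 0.10, unadjusted limma p = 0.0017, exact permutation p = 0.1). Its HET libraries, at 1052, 1257 and 1232, lay below those of KO (KO minus HET 0.32). *Adamts20*, a secreted metalloprotease, had 554, 477 and 509 in WT and 755, 640 and 649 in KO. *Cpne8*, a copine that binds phospholipids in the presence of calcium, had 830, 693 and 754 in WT and 898, 1025 and 922 in KO. For each of these genes, the lowest KO library stood above the highest WT library, and the HET libraries of *Adamts20* (644, 564 and 649) reached the KO range.

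*Mre11a*, a nuclease of DNA double-strand break repair, had 378, 326 and 350 in WT and 495, 411 and 460 in KO (log2 0.37). *Csrnp2*, a nuclear protein of a family of transcription factors, had 904, 941 and 994 in WT and 1080, 1170 and 1163 in KO (log2 0.26). *Trub2*, a pseudouridine synthase of mitochondria, differed by 0.30, but its HET mean of 883 was as high as the KO mean of 868. The remaining genes of the group act in lipid mediator synthesis (*Ptgs1*, cyclooxygenase-1, log2 0.33), hyaluronan breakdown (*Hyal2*, 0.56), protein kinase C-related signalling (*Pkn3*, 0.54), cell junctions and polarity (*Epb41l5*, 0.38), actin-based transport (*Myo7a*, 0.37) and cilia or sperm (*Maats1*, 0.64, and *Catsperg1*, 0.64). *Hyal2* was uneven, with 320, 249 and 465 in KO against 217, 249 and 215 in WT, so that the groups were parted by less than 1 normalized count. *Entpd4b* (log2 0.46) has a near-identical copy, *Entpd4*, and reads of the pair may have been divided between them. Among the 5 largest differences were *Eps8l1*, an actin regulator (log2 1.17, SE 0.55), the mitotic cyclin *Ccnb1* (1.00, SE 0.48) and *Sap25* of the Sin3A repressor complex (0.75, SE 0.37), all with KO means under 150 and unadjusted limma p above 0.05.

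Genes lower in KO included the pair with the smallest p of the named genes. *Slc11a2*, the divalent metal transporter DMT1 that brings iron into cells, had 1959, 1970 and 2011 in WT and 1321, 1461 and 1339 in KO (log2 −0.53, SE 0.10, unadjusted limma p = 0.00036, exact permutation p = 0.1). The WT libraries of *Slc11a2* were tightly grouped, and its HET libraries (1984, 1598 and 1629) lay above all KO libraries. *Acvrl1*, the type I receptor ALK1 through which endothelial cells respond to BMP9 and BMP10, had the largest difference of this group. Its values were 1371, 1471 and 984 in WT, 758, 463 and 589 in KO and 1460, 785 and 1261 in HET, so that the KO mean was 47.3% of the WT mean (log2 −1.09, SE 0.25). The KO libraries of *Acvrl1* lay below all WT and all HET libraries, with a difference from HET of −0.94 (SE 0.25). The 14 markers of endothelial cells and pericytes tested had a median difference of 0.0030, from −0.044 without WT replicate 1 to 0.064 without KO replicate 1. Their summed level was 14268 to 15848 in WT and 14223 to 15782 in KO. Whether *Acvrl1* followed the share of endothelial cells was not tested.

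A pair of secreted regulators from the TGF-beta superfamily pathways had lower values in KO. *Fst* (follistatin), a secreted antagonist of activin, had 118, 113 and 134 in WT and 98, 77 and 72 in KO (log2 −0.56). *Gdf10*, a ligand of that superfamily, had 254, 252 and 238 in WT and 203, 175 and 145 in KO (log2 −0.52). For both *Fst* and *Gdf10*, the HET means of 92.0 and 184 were near the KO means of 82.5 and 174. *Dennd6b*, an exchange factor for Rab GTPases, was the most precise of the group, with 2427, 2531 and 2593 in WT and 2079, 2095 and 1997 in KO (log2 −0.29, SE 0.086), and its HET mean of 2110 was again near that of KO.

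The other genes lower in KO had differences from −0.32 to −1.03. They were *Med27* of the Mediator complex (−0.36), the stereocilia scaffold *Pdzd7* (−0.45), the neuronal calcium-binding protein *Necab1* (−0.32), the chemokine scavenger *Ackr2* (−0.45), the heparan sulfate sulfotransferase *Hs3st5* (−0.49), the myeloid lectin *Clec12a* (−0.74), the endopeptidase *Phex* (−0.89), the glutathione peroxidase *Gpx6* (−1.03) and *Pcdhga2* (−0.36). *Pcdhga2* shares its last exons with the other gamma-protocadherins, and its share of their reads is uncertain. *Gpx6* was the lowest of them, with 77.2, 73.2 and 54.6 in WT and 47.1, 23.6 and 30.8 in KO, but its HET libraries ranged from 35.1 to 106.7. *Gtf3c2*, a subunit of the RNA polymerase III factor TFIIIC, had a fitted difference of −0.99 that rested on 1 library, at 133 in KO replicate 3 against 478 and 534 in the others, and HET replicate 3 was likewise low at 278. Without KO replicate 3 its difference was −0.35.

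**Figure D2:**
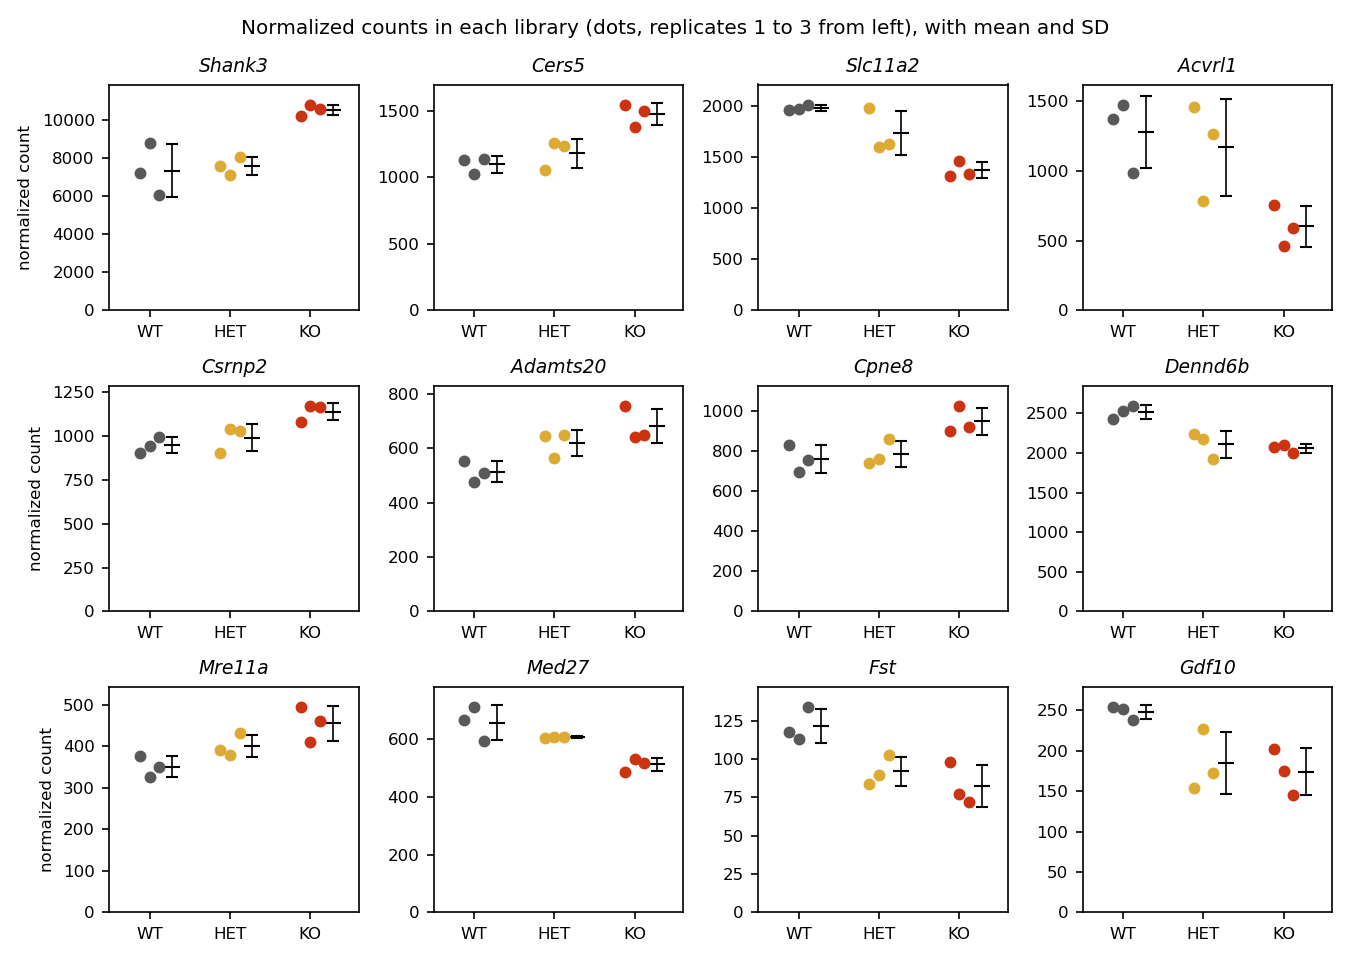
Normalized counts (y axis, from 0) of 12 named genes in each WT, HET and KO library, with dots for libraries and bars for the mean and SD of each genotype (n = 3). The genes other than *Shank3* were taken by a rule that required KO and WT dots not to overlap, and those of *Shank3* do not overlap either. The HET dots lie near WT for *Shank3*, near KO for *Dennd6b* and between or across both for most others.

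Many of the leading genes lay on chromosome 15, the chromosome of *Shank3*, which spans 89499623 to 89560261 on the plus strand of GRCm38. Of the 10 genes with the smallest p, 6 were on chromosome 15 (60%), and of the 30 genes named by p, 8 were (26.7%), against 4.05% of all genes tested. At an unadjusted p under 0.05 there were 13 of 577 genes on chromosome 15 (2.25%, the highest share among chromosomes with at least 100 genes tested, ahead of the X chromosome at 1.65%) and 104 of 13662 elsewhere (0.761%). Non-overlap of the KO and WT libraries was not more frequent over the whole of chromosome 15, at 4.16% against 4.55% elsewhere. By distance from *Shank3* it was 10.6% under 5 Mb, 4.22% from 5 to 20 Mb and 1.68% over 20 Mb. Mice of different genotype can differ at linked sequence around a targeted allele, and the labels do not say which sequence flanks it here, so a difference at a linked gene and an effect of the mutation cannot be told apart.

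Within 5 Mb of the start of *Shank3*, 5 of 66 genes had an unadjusted p under 0.05 (7.58%), 4 higher and 1 lower in KO. They were *Shank3*, *Cpne8* (0.988 Mb after it, 90487482 to 90679432), *Adamts20* (4.77 Mb after it, 94270163 to 94465418), *Dennd6b* (0.317 Mb before it, 89182213 to 89196496) and the weakly expressed *Klhdc7b*, a kelch domain protein with 4.28, 13.1 and 6.64 in WT and 15.4, 16.5 and 16.2 in KO. *Sbf1*, a pseudophosphatase of the myotubularin family 0.211 Mb before *Shank3*, had 5545, 5964 and 6526 in WT and 6659, 6732 and 8638 in KO (log2 0.28, SE 0.16). The median difference of the 66 genes was 0.053, against 0.0042 on the other chromosomes. From 5 to 20 Mb, the share at p under 0.05 was 1.51% (5 of 332 genes), and beyond 20 Mb it was 1.68% (3 of 179 genes).

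The other 5 genes lay close together, 10 to 12 Mb after *Shank3*, in a window chosen after the values were seen. Of its 32 genes, 5 had an unadjusted p under 0.05 (15.6%), with *Cers5* (99734881 to 99772885) and *Csrnp2* (100479570 to 100495488) higher and *Slc11a2* (100387898 to 100425072), *Cela1* (100674421 to 100687921) and *Acvrl1* (101128522 to 101145336) lower in KO. *Cela1*, a pancreatic-type elastase, had 38.0, 51.2 and 68.4 in WT and 25.8, 18.9 and 35.7 in KO. *Letmd1* lies between *Slc11a2* and *Csrnp2* on the opposite strand and had 1578, 1588 and 1571 in WT and 1478, 1413 and 1420 in KO (log2 −0.14, SE 0.076). Genes with higher and with lower values thus lay side by side in the window. KO and WT libraries did not overlap for 21.9% of its genes, against 4.55% on the other chromosomes.

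**Figure D3:**
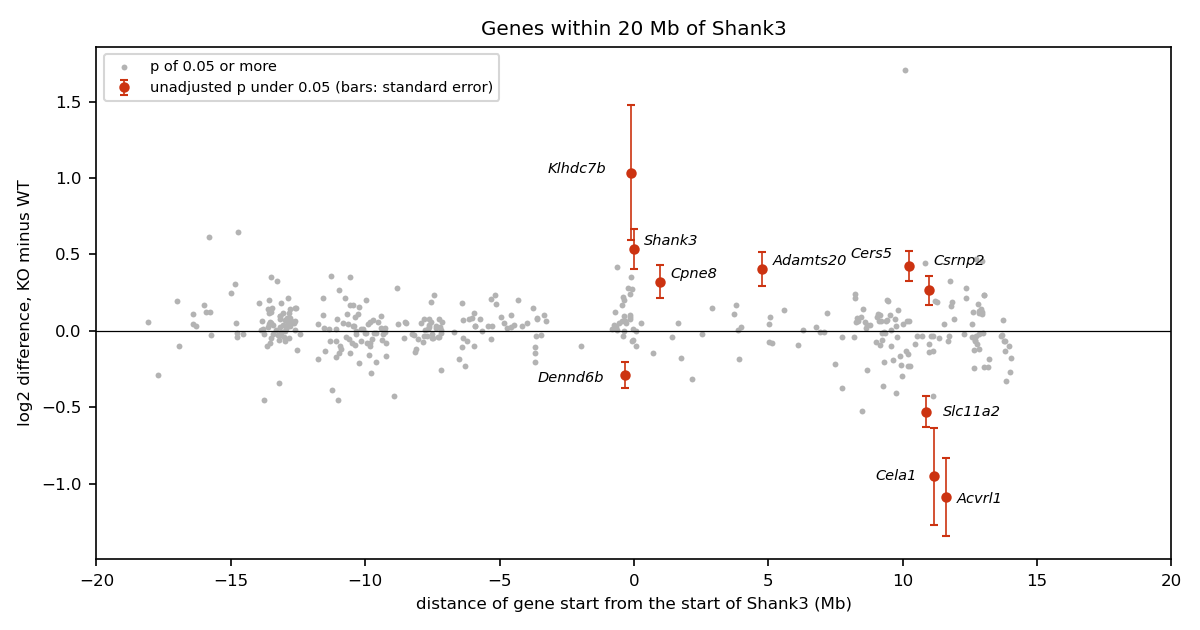
Log2 difference between KO and WT (y axis) for the genes within 20 Mb of *Shank3*, by the distance of their start from that of *Shank3* (x axis, Mb). Red dots with SE bars are genes with an unadjusted p under 0.05, 5 of them within 5 Mb of *Shank3* and 5 between 10 and 12 Mb after it.

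Beyond single genes, 44 lists of pathways, gene families and cell type markers were described by their counts and medians. Their 1037 distinct members included 8 genes at an unadjusted p under 0.05 (0.771%, against 0.822% of all genes tested), among them *Shank3*, *Slc11a2*, *Fst*, *Gdf10*, Prkcd, *Homer1* and *Fstl3*. In 38 lists no member reached that threshold, and 32 lists had a median between −0.1 and 0.1. None of the members passed the adjusted threshold in the main fit.

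**Figure D4:**
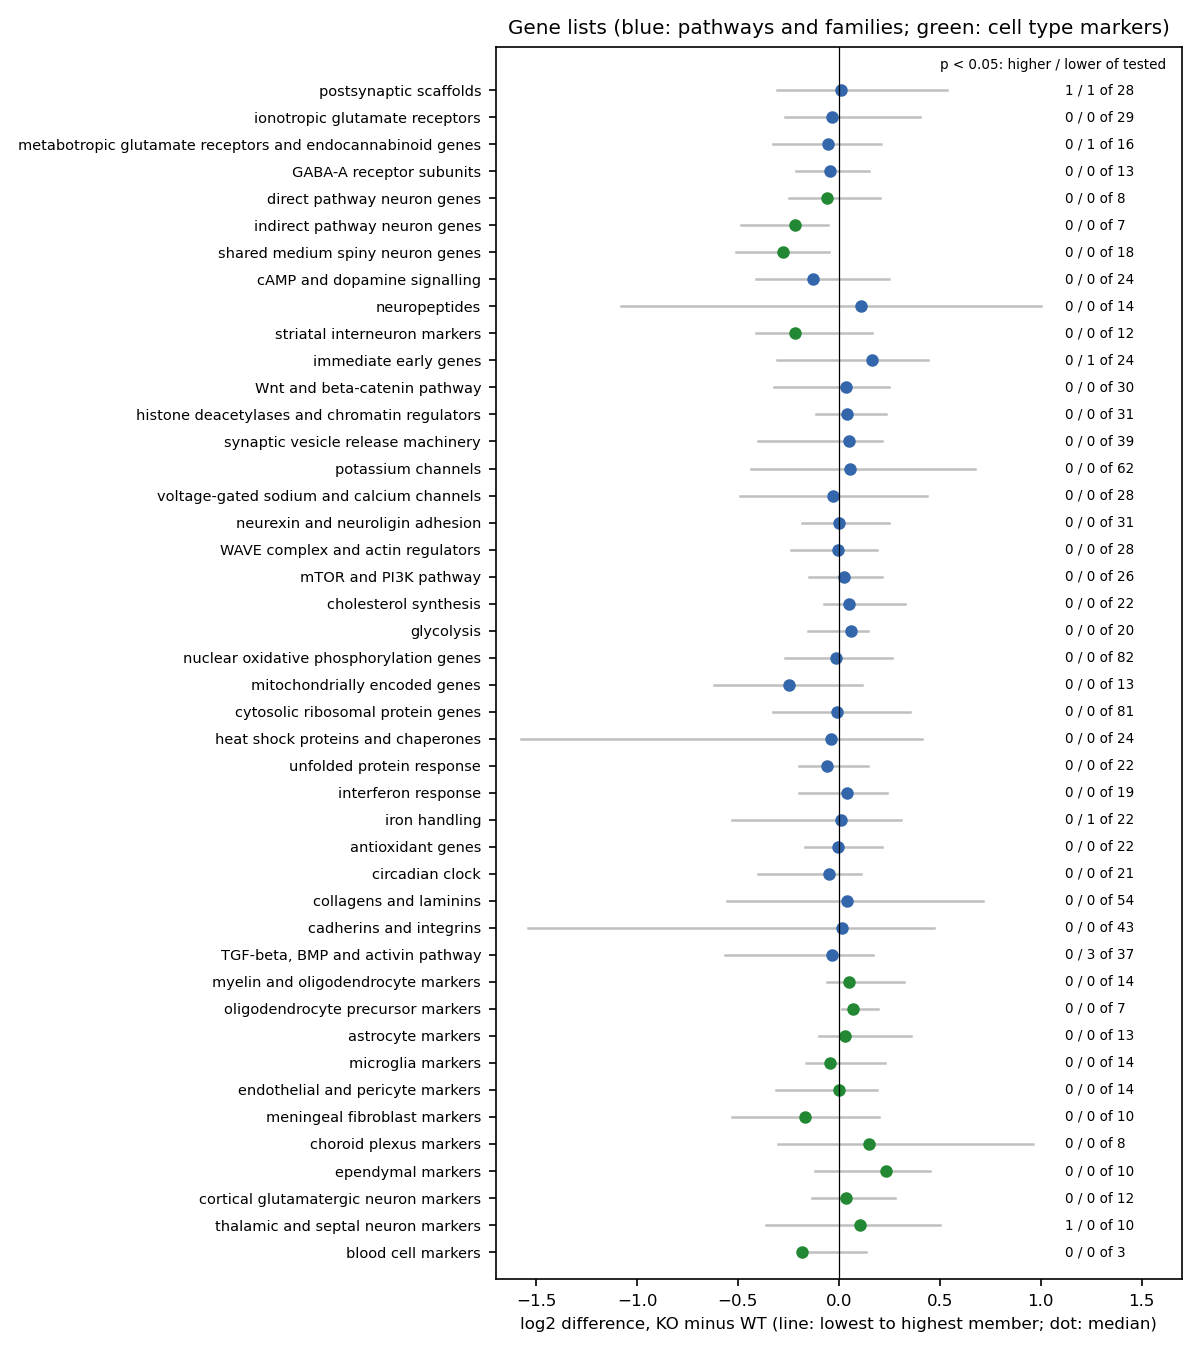
Median (dot) and range (line) of the log2 difference between KO and WT in 44 gene lists (y axis), with the number of members at an unadjusted p under 0.05, higher and lower, of the number tested at the right. Shared medium spiny neuron genes have the lowest median, −0.28, and most other lists lie close to 0.

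Medium spiny neuron genes had the lowest median of the 44 lists. All 18 genes shared by both types of medium spiny neuron had differences below 0, with a median of −0.28 against 0.0047 over all genes, yet 0 of 18 reached an unadjusted p under 0.05 and 0 of 18 had KO libraries wholly below WT. *Ppp1r1b*, the dopamine-regulated phosphatase inhibitor DARPP-32, had 26888, 31982 and 16786 in WT and 24272, 20303 and 12449 in KO (log2 −0.41). The synaptic protein *Syndig1l* had 5269, 7195 and 3096 in WT and 4373, 3453 and 2768 in KO (log2 −0.50), the phosphodiesterase *Pde10a* differed by −0.36, and the transcription factor *Bcl11b* by −0.18. In each of these genes WT replicate 3 lay at or below the middle of the KO libraries, while WT replicates 1 and 2 lay above all KO libraries.

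The difference of these genes depended on WT replicate 3. The median deviation of the 18 genes from their WT mean was 0.17, 0.38 and −0.55 in the WT libraries, −0.081, −0.24 and −0.48 in KO and 0.095, −0.20 and 0.17 in HET. Without WT replicate 3, 12 of 18 genes were lower at an unadjusted p under 0.05 (66.7%, against 1.33% of all genes in the same fit), 16 of 18 (88.9%) lay wholly below WT against 8.81% of all genes, and the median was −0.57. WT replicate 3 was the lowest WT library for these genes, so leaving it out raised their WT mean. Without WT replicate 1 or 2, or KO replicate 2 or 3, 0 of 18 were lower at an unadjusted p under 0.05. Without KO replicate 1 there were 2 of 18 (11.1%, against 0.653% of all genes in the same fit). Without WT replicate 2 the median was −0.12, and without KO replicate 3 it was −0.14. WT replicate 3 and KO replicate 3, the lowest libraries for these genes, were the highest for the 12 markers of cortical glutamatergic neurons, with median deviations of 0.21 and 0.30 and summed levels of 64983 and 73065 against 49260 to 54912 in the other 4 KO and WT libraries. Their part in the result was not tested. In dissected tissue, fewer cells of a type and less RNA per cell cannot be told apart.

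Markers of the indirect pathway put the KO and WT libraries in the same order as the shared genes, and those of the direct pathway had a median nearer 0. All 7 indirect pathway genes tested were below 0, with a median of −0.22. It was −0.50 without WT replicate 3, where 2 of 7 were lower at an unadjusted p under 0.05 (28.6%, against that 1.33%), and −0.053 without WT replicate 2. *Adora2a* had 5994, 8087 and 3555 in WT, 4627, 3960 and 3426 in KO and 5585, 4826 and 7107 in HET (log2 −0.49, SE 0.26), *Drd2* differed by −0.27 (SE 0.30) and *Penk* by −0.26 (SE 0.26). Of 8 direct pathway genes, 7 were below 0 with a median of −0.057. Without WT replicate 3 this median was also lower, at −0.31, and it was 0.059 without WT replicate 1 and 0.075 without KO replicate 3. In the fit without WT replicate 3, 1 of 8 was lower at an unadjusted p under 0.05 (12.5%, against 1.33% of all genes). In that fit 3 of 8 lay wholly below WT (37.5%, against 8.81% of all genes). In both pathway lists, 0 members were lower at an unadjusted p under 0.05 when any other WT or KO library was left out. *Drd1* differed by −0.25 (SE 0.28) and *Tac1* by −0.12 (SE 0.35), and *Pdyn*, the dynorphin precursor, by 0.20 (SE 0.33). The difference between the pathways was not tested. Genes of cAMP and dopamine signalling, a list that shares *Ppp1r1b* and *Pde10a* with the medium spiny neuron genes, had 18 of 24 members below 0 and a median of −0.13. The median of that list was −0.23 without WT replicate 3 and −0.039 without WT replicate 2. In the former fit, 8 of 24 were lower at an unadjusted p under 0.05 (33.3%, against 1.33% of all genes). In the same fit 12 of 24 lay wholly below WT (50%, against 8.81% of all genes). When any other WT or KO library was left out, 0 of 24 were lower at an unadjusted p under 0.05. The auxiliary sodium channel subunit *Scn4b* differed by −0.49 (SE 0.26).

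**Figure D5:**
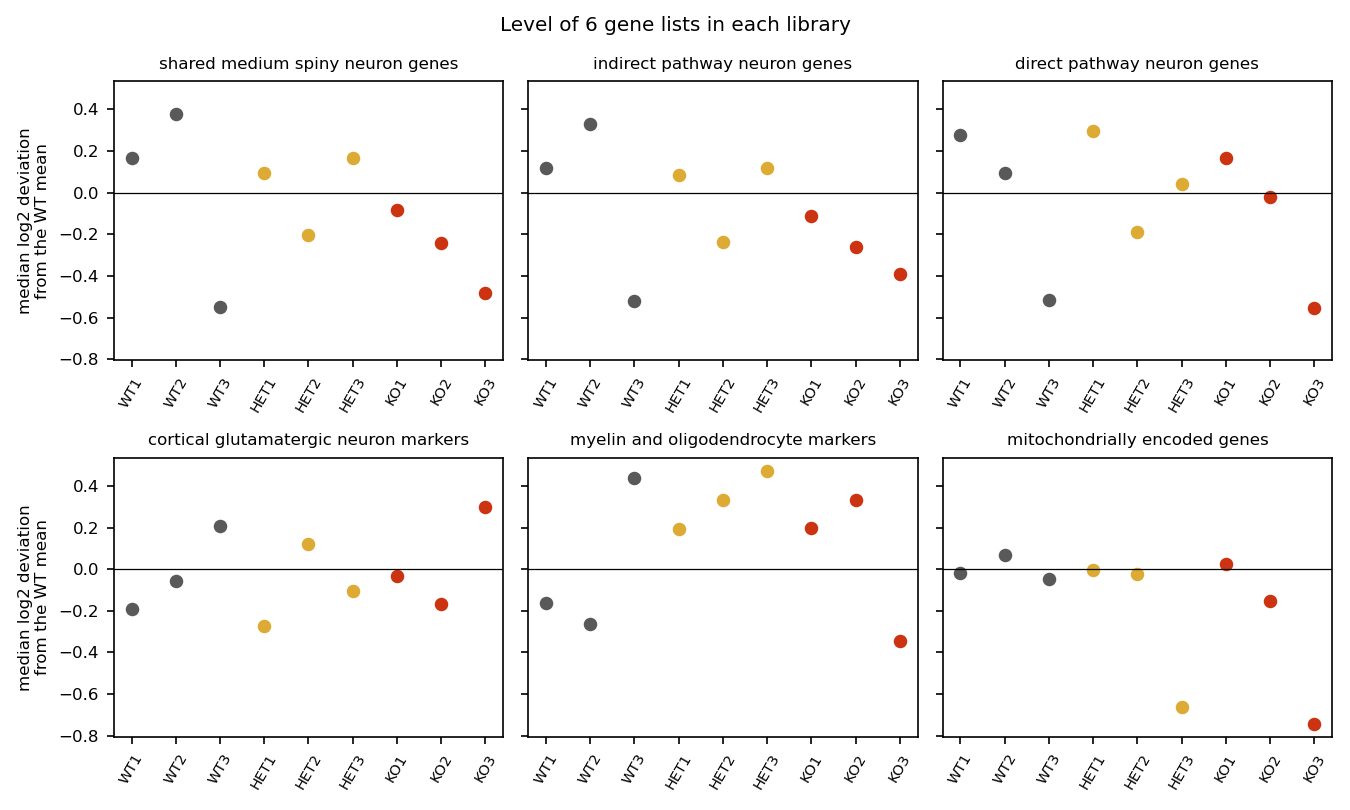
Median log2 deviation from the WT mean (y axis) of the members of 6 lists in each of the 9 libraries (x axis; grey WT, yellow HET, red KO). WT3 and KO3 are the lowest libraries for medium spiny neuron genes and the highest for cortical markers, and HET3 and KO3 are the lowest for mitochondrially encoded genes.

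Of 28 postsynaptic scaffolds, which include the partners of *Shank3* at the synapse, *Shank3* itself was higher and *Homer1* lower at an unadjusted p under 0.05. The targeted gene was thus the only member higher (3.57%, against 0.386% of all genes), and *Homer1* the only one lower (3.57%, against 0.435%). The median of the list was 0.011. *Homer1*, whose product binds Shank3, had 6230, 6000 and 4814 in WT, 5291, 3897 and 4629 in KO and 5235, 4989 and 5231 in HET (log2 −0.30, SE 0.13), and the groups overlapped. It did not reach that threshold when WT replicate 1 or 2, KO replicate 2 or 3, or HET replicate 1 or 2 was left out. *Dlgap3*, a SAPAP gene known for its high striatal expression, had 13014, 18128 and 12672 in WT and 11931, 12898 and 12319 in KO (log2 −0.22, and −0.053 without WT replicate 2, its highest library). *Plcb1*, a phospholipase C activated by Gq-coupled receptors, had 11138, 11020 and 9835 in WT and 9470, 9757 and 9418 in KO (log2 −0.16). The 16 metabotropic glutamate receptor and endocannabinoid genes tested had a median of −0.055, which ranged from −0.11 without KO replicate 3 to 0.037 without KO replicate 2.

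Ionotropic glutamate receptors and their auxiliary subunits had 22 of 29 members below 0 with a median of only −0.034, and 0 of 29 reached an unadjusted p under 0.05. The lowest was *Neto2*, an auxiliary subunit of kainate receptors, with 3053, 3244 and 2242 in WT and 2391, 2423 and 2195 in KO (log2 −0.27), followed by the AMPA receptor auxiliary subunit *Cacng3* (−0.25). GABA-A receptor subunits (median −0.045, 0 of 13), synaptic vesicle genes (0.049, 0 of 39), neurexin and neuroligin adhesion genes (0.00093, 0 of 31), actin regulators of the WAVE complex (−0.0056, 0 of 28) and potassium channels (0.053, 0 of 62) had medians close to 0. For 26 of 31 adhesion genes and 26 of 28 actin regulators, the 95% interval lay within 1.5-fold of no difference. *Abi2*, a subunit of the WAVE complex, was the actin regulator with the smallest p, with 6685, 6316 and 5793 in WT and 5675, 5662 and 5100 in KO (log2 −0.19), and its HET mean of 5400 matched the KO mean of 5479.

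Immediate early genes, which neurons transcribe upon activity, had 19 of 24 members above 0 and a median of 0.17, but 0 of 24 were higher at an unadjusted p under 0.05. Leaving out KO replicate 2 brought the median to 0.022, and leaving out KO replicate 1 to 0.30, where 3 of 24 were higher at that threshold (12.5%, against 0.541% of all genes in the same fit). Without WT replicate 1 there were 2 of 24 (8.33%, against 0.541%) and without WT replicate 3 there was 1 (4.17%, against 0.723%). Without WT replicate 2, or KO replicate 2 or 3, it was 0 of 24. The member with the smallest p was *Homer1*, which was lower, and next to it the zinc finger factor *Egr3* was lower as well, with 2316, 2745 and 2270 in WT and 2038, 2214 and 2027 in KO (log2 −0.22), while *Klf4* differed by 0.34. Neuropeptides were mixed, from −1.08 for *Trh* to 1.00 for *Nts*, with no member at p under 0.05. Somatostatin (*Sst*) had 4404, 4620 and 4304 in WT and 4740, 4968 and 5259 in KO (log2 0.17), without overlap. Interneuron markers as a list were mostly below 0 (10 of 12, median −0.22, 0 at p under 0.05). Their median was −0.091 without KO replicate 3 and −0.15 without WT replicate 3. In the latter fit, 2 of 12 were lower at an unadjusted p under 0.05 (16.7%, against 1.33% of all genes). In the same fit 6 of 12 interneuron markers lay wholly below WT (50%, against 8.81% of all genes). Without KO replicate 2, 1 of 12 was lower at that threshold (8.33%, against 0.611% of all genes). Without WT replicate 1 or 2, or KO replicate 1 or 3, it was 0 of 12 interneuron markers. Of them, *Nos1* had 2069, 2222 and 2039 in WT and 1754, 2033 and 1645 in KO (log2 −0.23), and the cholinergic marker *Chat* differed by −0.41 (SE 0.31), from −0.71 without WT replicate 3 to −0.15 without KO replicate 3.

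The TGF-beta, BMP and activin pathway had 3 of 37 members lower at an unadjusted p under 0.05 (8.11%, against 0.435% of all genes) and 0 higher. The count was 2 of 37 when any KO library, WT replicate 2 or 3, or HET replicate 1 or 3 was left out. The 3 genes were *Fst*, *Gdf10* and *Fstl3*, the last a follistatin-like antagonist with 100.2, 148 and 117 in WT and 70.0, 87.5 and 107 in KO (log2 −0.47). Each of them is secreted, and the median of the pathway was −0.035. *Acvrl1* was not in the list as written. The list was written with earlier results of these data known, so its share of 8.11% is no independent test of the pathway. Wnt and beta-catenin genes (median 0.035, 0 of 30 at p under 0.05, *Axin1* −0.16), histone deacetylases and chromatin regulators (0.040, 0 of 31), and mTOR and PI3K genes (0.028, 0 of 26) had no such member, and the 95% interval lay within 1.5-fold of no difference for 29 of 31 chromatin genes. Among iron handling genes, *Slc11a2* alone reached an unadjusted p under 0.05 (1 of 22 lower, 4.55%, against 0.435% of all genes), and the median was 0.0094.

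Metabolic and stress lists had no member at an unadjusted p under 0.05. Cholesterol synthesis had 18 of 22 members above 0 with a median of 0.050, among them *Dhcr7* (log2 0.33, with 1069, 951 and 1118 in WT and 1214, 1131 and 1628 in KO). Glycolysis (0.059), nuclear oxidative phosphorylation genes (−0.016), cytosolic ribosomal protein genes (−0.0097), the unfolded protein response (−0.057), antioxidant genes (−0.0052) and the interferon response (0.040) had medians near 0. Of the circadian genes, *Ciart* differed most (−0.40, SE 0.20, median of the list −0.050). Collagens and laminins (0.038, 0 of 54, *Col5a2* 0.30) and cadherins and integrins (0.015, 0 of 43) were also centred near 0. The chaperones (median −0.037) ran from −1.58 for *Hspa4l* to 0.41 for *Hspa1a*. *Hspa1a* had 355, 377 and 333 in WT and 396, 402 and 662 in KO (log2 0.41, and 0.17 without KO replicate 3).

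The genes with the highest normalized counts in WT, *mt-Co1*, *mt-Atp6*, *mt-Cytb*, *mt-Co2* and *mt-Co3*, are encoded by the mitochondrial genome. Of 13 such genes 11 were below 0, with a median of −0.24. Leaving out KO replicate 3 brought it to −0.067, and leaving out KO replicate 1 to −0.41. The median deviation from WT was −0.74 in KO replicate 3 and −0.66 in HET replicate 3, the pair of libraries that stood apart, and between −0.15 and 0.068 in the other 7. For *mt-Co1* the values were 852375, 867475 and 831473 in WT and 891280, 739390 and 643442 in KO.

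Markers of glia and other non-neuronal cells had medians on both sides of 0. Myelin and oligodendrocyte markers (14 genes, median 0.051), oligodendrocyte precursor markers (7, 0.072), astrocyte markers (13, 0.033) and microglia markers (14, −0.041) had 0 members at an unadjusted p under 0.05. The myelin median took both signs when 1 library was left out, from −0.089 without KO replicate 2 to 0.26 without KO replicate 3. *Mbp*, the myelin basic protein gene, ranged from 69792 to 116028 in WT and from 53066 to 110356 in KO. Ependymal markers had 9 of 10 members above 0 and a median of 0.23. It was −0.0081 without KO replicate 2, 0.45 without WT replicate 3 and 0.46 without KO replicate 3, where 3 of 10 were higher at an unadjusted p under 0.05 (30%, against 0.702% of all genes in the same fit). When any other WT or KO library was left out, 0 of 10 ependymal markers were higher at that threshold. Meningeal fibroblast markers (median −0.17, from −0.45 without KO replicate 3 to 0.23 without KO replicate 1), choroid plexus markers (8 of 13 tested, 0.15, and 0.33 without KO replicate 1) and blood cell markers (3 of 7 tested, −0.18, from −0.49 without WT replicate 1 to 0.15 without WT replicate 3) also had 0 members at that threshold. Among thalamic and septal markers, Prkcd, a protein kinase C, had 322, 352 and 317 in WT and 396, 561 and 356 in KO (log2 0.38, unadjusted limma p = 0.041, exact permutation p = 0.1), and its highest library, KO replicate 2, was also the highest for the list, with a median deviation of 0.56. Without that library Prkcd differed by 0.18.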

How the data were processed

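The study sequenced poly(A) RNA of the striatum (TruSeq stranded libraries, paired reads of 101 bases). The authors estimated transcript abundance with Salmon 0.9.1 on GRCm38 with GC bias correction, summed it per gene with tximport in R 3.6.0 and divided it by DESeq2 1.19.11 size factors, and the deposited signal is this normalized count. Whole reads could not be recovered, since only 15.6% to 42.4% of the values under 20 in a library lay within 0.05 of a common step, so no count model was run and the depth is unknown. Precision comes from the spread between mice.

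Each column carries the name of its sample, and 0 columns were unused. Genes that reached 10 or more in 3 or more of the 9 libraries were transformed as log2(value + 1), which understates differences of weakly expressed genes, and fitted with limma 3.58.1 (trend) in R 4.3.3, all 9 libraries in one fit with genotype as the factor and Benjamini-Hochberg adjustment. Contrasts were KO minus WT and KO minus HET, which share the KO libraries. Exact permutation tests were two-sided. Lists were described by counts and medians, with no set test. The fit was tested on simulated data, where 2, 2 and 11 genes without a change were called beside 200 genes with log2 changes of 0.5, 1 and 2.

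The comparison and the lists were chosen with earlier results of these data known. Named genes were *Shank3*, the 15 genes in each direction with the smallest p and the 5 with the largest difference (mean of at least 50, no overlap of KO and WT), up to 3 members of each list with the smallest p and the first 2 cell type markers of each list, and the 5 genes highest in WT. Members of lists without a result are given by counts, and a few genes that the rule names are not reported here. Symbols and positions come from GENCODE M21 (15462 of 15464 genes). Alternatives were other pseudocounts, filters, normalization, variance priors, library weights, an empirical null, a replicate block, a fit of KO and WT alone and the omission of single libraries. Figures were drawn with matplotlib 3.10.9.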

Additional observations from a re-analysis of the deposited data

How the results depend on the processing

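The count of genes at an adjusted p under 0.05 stayed at 0 under the other alternatives, leave-one-out fits included, and was 2 (*Slc11a2* and *Cd300ld3*) with an empirical null. The 117 genes at an unadjusted p under 0.05 became 65 with a mean of at least 100, 176 without a trend in the variance prior, 310 with the replicate number as a block, 395 with library weights and 644 with the empirical null, and 72 (without WT replicate 2) to 292 (without WT replicate 3) when 1 library was left out. Without KO replicate 3 there were 100 higher and 36 lower. The 646 genes whose KO and WT libraries did not overlap became 646 to 2250, fewer libraries being easier to part, and the 254 genes above 1.5-fold became 102 with a pseudocount of 10, 664 without a filter, 34 with a mean of at least 100 and 254 to 432 with 1 library left out. The 10 genes within 20 Mb of *Shank3* at an unadjusted p under 0.05 became 16 with the block, 24 with the empirical null and 6 (without KO replicate 2) to 13 (without WT replicate 3). Over all genes tested, the 117 became 310, 644, 149 and 292 in the same fits. With the block and with the empirical null, the count over all genes thus rose by a larger factor than the count near *Shank3*. Leaving out both KO replicate 3 and HET replicate 3, chosen after seeing the data, gave 0 adjusted calls, 219 unadjusted and 1913 without overlap. Of the genes named with values, *Penk* and *Tac1* reversed: *Penk* to 0.00037 without KO replicate 3 (with or without HET replicate 3, range −0.52 to 0.00037) and *Tac1* to 0.058 with library weights, 0.023 without WT replicate 1, 0.028 without WT replicate 2 and 0.23 without KO replicate 3 (with or without HET replicate 3, range −0.43 to 0.23). The named genes otherwise kept their direction (1342 values, against 7 reversed). Where KO and WT libraries do not overlap, a rule by which many of these genes were taken, leaving out a library cannot reverse the direction. The count is therefore no test of robustness for such genes. Of the list medians under the alternatives, 864 moved by less than the spread between libraries and 16 by more. The cause was not tested, beyond the fewer genes or libraries that a filter or a left-out library leaves. Replicate numbers did not pair KO with WT (deviations of same-numbered libraries correlated at 0.243, −0.221 and 0.0244). The spread between 3 mice limits what could be detected, most of all for genes with a mean under 100.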
